A study of Homo sapiens with 2 samples.

Results

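DYRK1A and 8 other genes of chromosome 21 that are discussed in Down syndrome and its leukemias (HMGN1, CHAF1B, SON, ETS2, SOD1, TTC3, CBR1 and IFNAR1) were followed in a ChIP-on-chip experiment for the transcription factor GATA1. The genes were chosen by name, and their probes were those that the array design assigns to them by RefSeq symbol. This gave 252 of the 237201 genomic probes of 1 promoter array, chIP2, and 9 of the 8886 genes that this array covers, or of the 17272 genes of both arrays of the set. The sample was untreated Meg-01, a human megakaryoblastic line derived from chronic myeloid leukemia in blast crisis, and not a line from a Down syndrome leukemia. Chromatin from these cells was pulled down with the GATA1 antibody C-20 (the IP, labeled with Cy5) or with normal goat IgG (the background, labeled with Cy3), and both were hybridized together. A single hybridization measured each probe, without a dye swap or a replicate, so no test was possible and every value describes this array only.

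GATA1 is a zinc finger factor that binds GATA motifs and drives the maturation of megakaryocytes and red cells. In children with Down syndrome, who carry an additional copy of chromosome 21, acute megakaryocytic leukemia nearly always carries an acquired GATA1 mutation that leaves a shortened protein, and genes of chromosome 21 are studied for what their additional copy adds. DYRK1A is a kinase that phosphorylates NFAT factors, which leads to their export from the nucleus, and LIN52, which allows the DREAM repressor complex to assemble and cells to become quiescent. It was reported to promote megakaryoblastic leukemia in a mouse model of Down syndrome. HMGN1 is a nucleosome binding protein, CHAF1B a subunit of the chromatin assembly factor CAF-1, SON a splicing cofactor of nuclear speckles, ETS2 an ETS family transcription factor, SOD1 the cytosolic superoxide dismutase, TTC3 a ubiquitin ligase, CBR1 a carbonyl reductase that metabolizes anthracyclines, and IFNAR1 a chain of the type I interferon receptor.

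The bases just upstream of 5 starts are printed because the comparison of DYRK1A's starts, the windows of highest IP signal and the GATA motifs turn on them. They come from RefSeq (GRCh38.p14), where 8 of the 9 genes had an entry, with 16 starts in all. Each run holds the 250 bases before a start, 5′ to 3′ on the strand of the gene, and capitals mark the GATA motif searched, 6 letters made of GATA with A or T before it and A or G after it, on either strand. No match overlapped another. DYRK1A's upstream start is at chr21:37367307-37367556 and its first downstream start at chr21:37418655-37418904, both on the plus strand. These were matched to the starts on the array by their spacing of 51348 bp, which is the same in both. SON is at chr21:33542788-33543037, ETS2 at chr21:38804933-38805182 and IFNAR1 at chr21:33324145-33324394, all on the plus strand. ETS2 and IFNAR1 each have a further start nearby, and no start of either gene matched the array exactly by its spacing from SON. For ETS2, which of them the array used was not settled. For IFNAR1 the further start, at 33324970, came closer by this spacing than the printed one.
DYRK1A, upstream start: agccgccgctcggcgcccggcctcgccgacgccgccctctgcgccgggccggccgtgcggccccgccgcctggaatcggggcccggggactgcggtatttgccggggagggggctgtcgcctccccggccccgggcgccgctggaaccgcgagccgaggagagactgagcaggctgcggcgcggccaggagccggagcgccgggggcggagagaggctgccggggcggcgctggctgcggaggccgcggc
DYRK1A, first downstream start: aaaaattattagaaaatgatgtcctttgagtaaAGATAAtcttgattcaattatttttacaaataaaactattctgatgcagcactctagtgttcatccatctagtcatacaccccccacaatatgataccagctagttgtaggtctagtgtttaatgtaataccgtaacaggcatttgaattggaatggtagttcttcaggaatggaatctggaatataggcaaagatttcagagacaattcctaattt
SON: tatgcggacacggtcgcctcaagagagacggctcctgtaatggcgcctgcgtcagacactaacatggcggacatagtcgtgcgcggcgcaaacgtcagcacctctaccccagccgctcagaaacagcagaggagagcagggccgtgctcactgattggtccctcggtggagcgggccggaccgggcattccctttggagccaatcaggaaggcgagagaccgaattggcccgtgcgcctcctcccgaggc
ETS2: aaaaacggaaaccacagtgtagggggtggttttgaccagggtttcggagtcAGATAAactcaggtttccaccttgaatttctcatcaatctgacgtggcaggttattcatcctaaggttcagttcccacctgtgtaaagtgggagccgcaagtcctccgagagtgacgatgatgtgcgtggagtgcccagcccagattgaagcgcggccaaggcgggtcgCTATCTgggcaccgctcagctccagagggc
IFNAR1: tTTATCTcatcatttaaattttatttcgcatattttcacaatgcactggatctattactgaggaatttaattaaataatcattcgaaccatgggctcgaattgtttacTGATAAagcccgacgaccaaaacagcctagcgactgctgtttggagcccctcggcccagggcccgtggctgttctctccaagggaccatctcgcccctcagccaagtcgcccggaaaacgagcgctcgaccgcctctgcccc

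The upstream start of DYRK1A lay in a stretch of 82.4% G and C, whereas the first downstream start lay in one of 32.8%. The one match there, AGATAA, began at -217 from that start. A further downstream start, at 37420299, lay in a stretch of 26.4% G and C and held 2 matches, TTATCT at -35 and TTATCA at -28. Its spacing from the first downstream start is the same as that of the next downstream start on the array. Another start of DYRK1A, at 37365573 and before the upstream start, also held 2. The printed runs of IFNAR1 and ETS2 each held 2 matches, but the run of the further start of each gene held none. A match at the start the array used is therefore not settled for ETS2. For IFNAR1 the start that came closer by spacing is the one without a match. SON held none. Across the 9 genes, 5 of the 16 upstream runs held a match, in DYRK1A, ETS2 and IFNAR1. Of 34943 different runs of this length in the RefSeq table, 22.4% held at least 1 match and 4.98% at least 2. A match shows only that these letters are present.

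The value of a probe was log2 of the processed IP signal over the processed IgG signal, with the median of the array set to 0. A window was the mean of a probe and the kept probe on each side of it (3 probes), neither of them farther than 1000 bp away. It was called enriched when the mean was at least 1 (2-fold toward the IP) and depleted when it was at most -1 (2-fold toward the IgG). All 252 probes were kept, all stood well above background in both channels and none was saturated. They gave 222 windows. Signals on this array were low: genomic probes had a median mean signal of 544 (IP) and 440 (IgG), and negative controls one of 340 and 303. The SD over all kept probes was 0.97. Positions below are those of the array design on chromosome 21. Its genome build is not given in the sources used here, so these positions cannot be set directly against those of the RefSeq runs above. Only spacings between starts could be compared.

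SON and ETS2 were the only genes of the 9 with an enriched window, that is 2 of 9, whereas 54.9% of the 8756 genes with a window on the array had one and 37.3% of the 212 such genes of chromosome 21 did. DYRK1A and SOD1 had a depleted window, again 2 of 9, against 50.5% of all genes and 51.4% of those of chromosome 21. By windows, 4 of 222 were enriched against 7.26% of all windows of the array, and 12 of 222 were depleted against 9.59%. The shares of the array were not matched for intensity. The highest windows of the 9 genes had a median of 0.76, below the 1.06 of all genes and the 0.91 of chromosome 21. The percentile of that window among all genes ran from 9.70 for CHAF1B to 58.4 for ETS2.

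**Figure D1:**
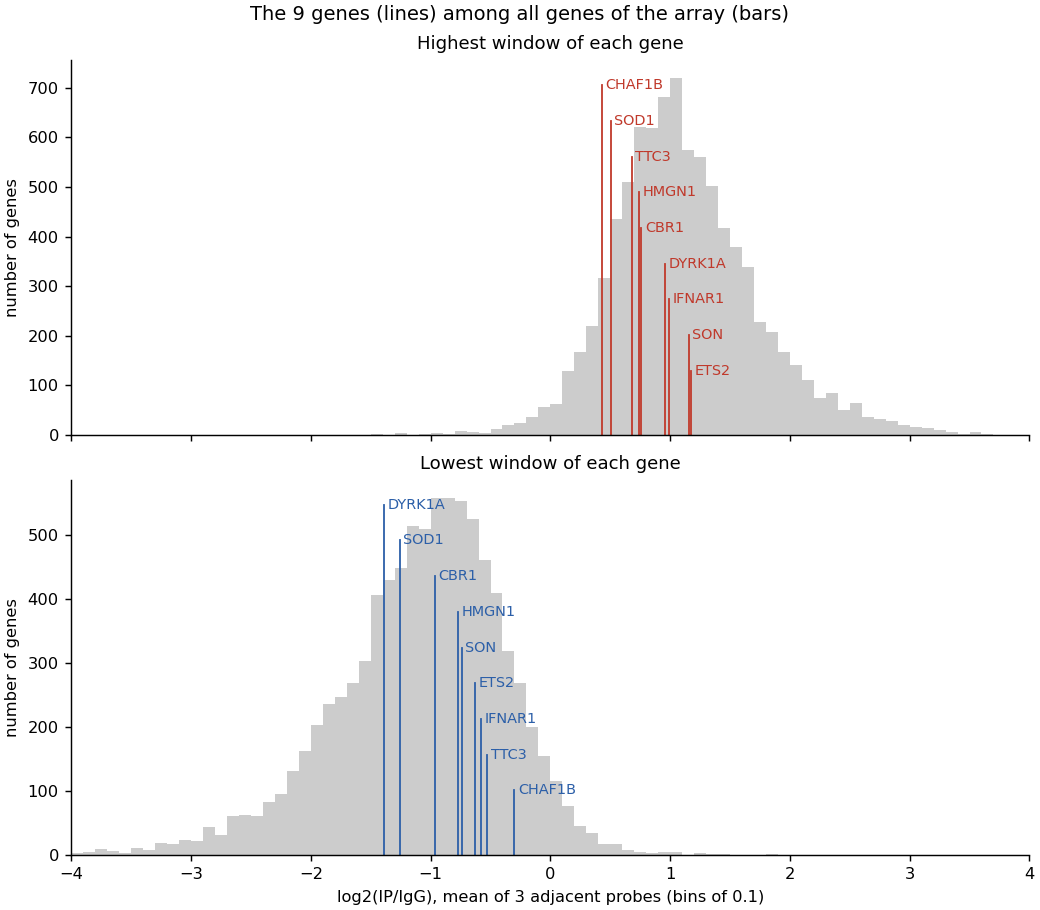
Number of genes of the array (gray bars, bins of 0.1) by their highest window (upper panel) and lowest window (lower panel), both as log2(IP/IgG), with a line for each of the 9 genes. The highest windows of the 9 genes lay between 0.43 for CHAF1B and 1.17 for ETS2, in the lower and middle part of all genes, and their lowest windows between -1.39 for DYRK1A and -0.30 for CHAF1B.

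DYRK1A was covered by 75 probes and 70 windows in 2 clusters, 28 probes around the upstream start (the transcript NM_101395, position 37661728) and 47 around the downstream starts (NM_130436 at 37713076, NM_130437 at 37714470 and NM_001396 at 37714471). Its highest window was 0.96 ± 0.43 (SD of 3 probes), from probes of 0.47, 1.14 and 1.26. It lay inside the gene at 37662455 to 37663075, with its center 888 bp after the upstream start. This window fell just under 2-fold and stood at percentile 42.1 among all genes. Among the 189 genes with a like number of windows it stood at percentile 10.6. The neighboring window, centered 1320 bp after the start, was also 0.96, and the window 1479 bp after it was 0.71.

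The clusters of DYRK1A differed in level. Around the upstream start the 28 probes ranged from -1.77 to 1.26 with a median of 0.02, and 16 of them were above 0. Around the downstream starts the 47 probes ranged from -1.73 to 0.92 with a median of -0.37, and 13 of them were above 0. The probe values of the clusters overlapped over most of their range, with means of 0.03 ± 0.69 and -0.36 ± 0.63 (SD over probes, which are not replicates). The highest window around the downstream starts was 0.58, centered at -1256 bp from the first of them. Signal moved with position too: the median window of the upstream cluster was at percentile 78.4 of the array by intensity and that of the downstream cluster at percentile 31.9. Within 500 bp of the nearest start, the 14 windows of the downstream cluster averaged -0.48, at percentile 8.29 among 4860 genes with such windows and a RefSeq promoter, and the 1 window of the upstream cluster was 0.33, at percentile 56.5.

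Base composition also differed between these starts. Genes were divided into 4 groups by the share of G and C, averaged over all RefSeq runs of a gene. DYRK1A, at 51.2%, was thus in the lowest group as a whole, and its starts were not placed separately. The start windows of the lowest group (21.2% to 55.6%) had a median of 0.07 and a lower quartile of -0.41. The medians of the next groups were 0.35, 0.32 and, in the highest group (70.1% to 89.2%), 0.24. The lowest group thus stood below the others, and among the others the median did not rise with G and C. The part of base composition and intensity in the difference between the starts of DYRK1A was not tested. Over 1052 genes with a GATA match in a run, the start windows had a median of 0.20, against 0.28 over the 3808 genes with none. In the lowest group by G and C it was 0.03 with a match (545 genes) and 0.11 without (694 genes). In the highest it was 0.34 with a match (47 genes) and 0.24 without (1119 genes). The quartiles overlapped widely, in the highest group 0.12 to 0.52 with a match and 0.08 to 0.46 without. The groups between were not split. Matches were counted over all runs of a gene, so a match need not be at the start measured.

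Toward the IgG, DYRK1A had 9 of the 12 depleted windows of the 9 genes, in 3 regions. It also held 70 of their 222 windows, so the depleted ones were 9 of 70, against 9.59% of all windows of the array. Neighboring windows share probes. The lowest window, -1.39, lay at 37657491 to 37658481, centered at -4064 bp from the upstream start, and came from probes of -1.46, -1.77 and -0.95. The broadest region, of 5 windows from 37708763 to 37710654, was centered between -4105 and -2893 bp from the first downstream start, and its 7 probes ranged from -1.73 to -0.43. The last region, of 2 windows at 37714701 to 37715180, lay 376 to 494 bp after the start of NM_001396. These regions differed in how much signal they carried. At the lowest probe of the first region the mean signals before any correction were 698 in the IP and 1062 in the IgG channel, while in the last region they were 477 and 506 at the lowest probe. With normexp background correction, 1 of the 2, 1 of the 5 and 0 of the 2 windows stayed past 2-fold. Over all genes, the share with a depleted window fell from 50.5% to 22.5%. Without that correction, the lowest window of DYRK1A was not extreme, since 29.2% of genes had a lower one.

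**Figure D2:**
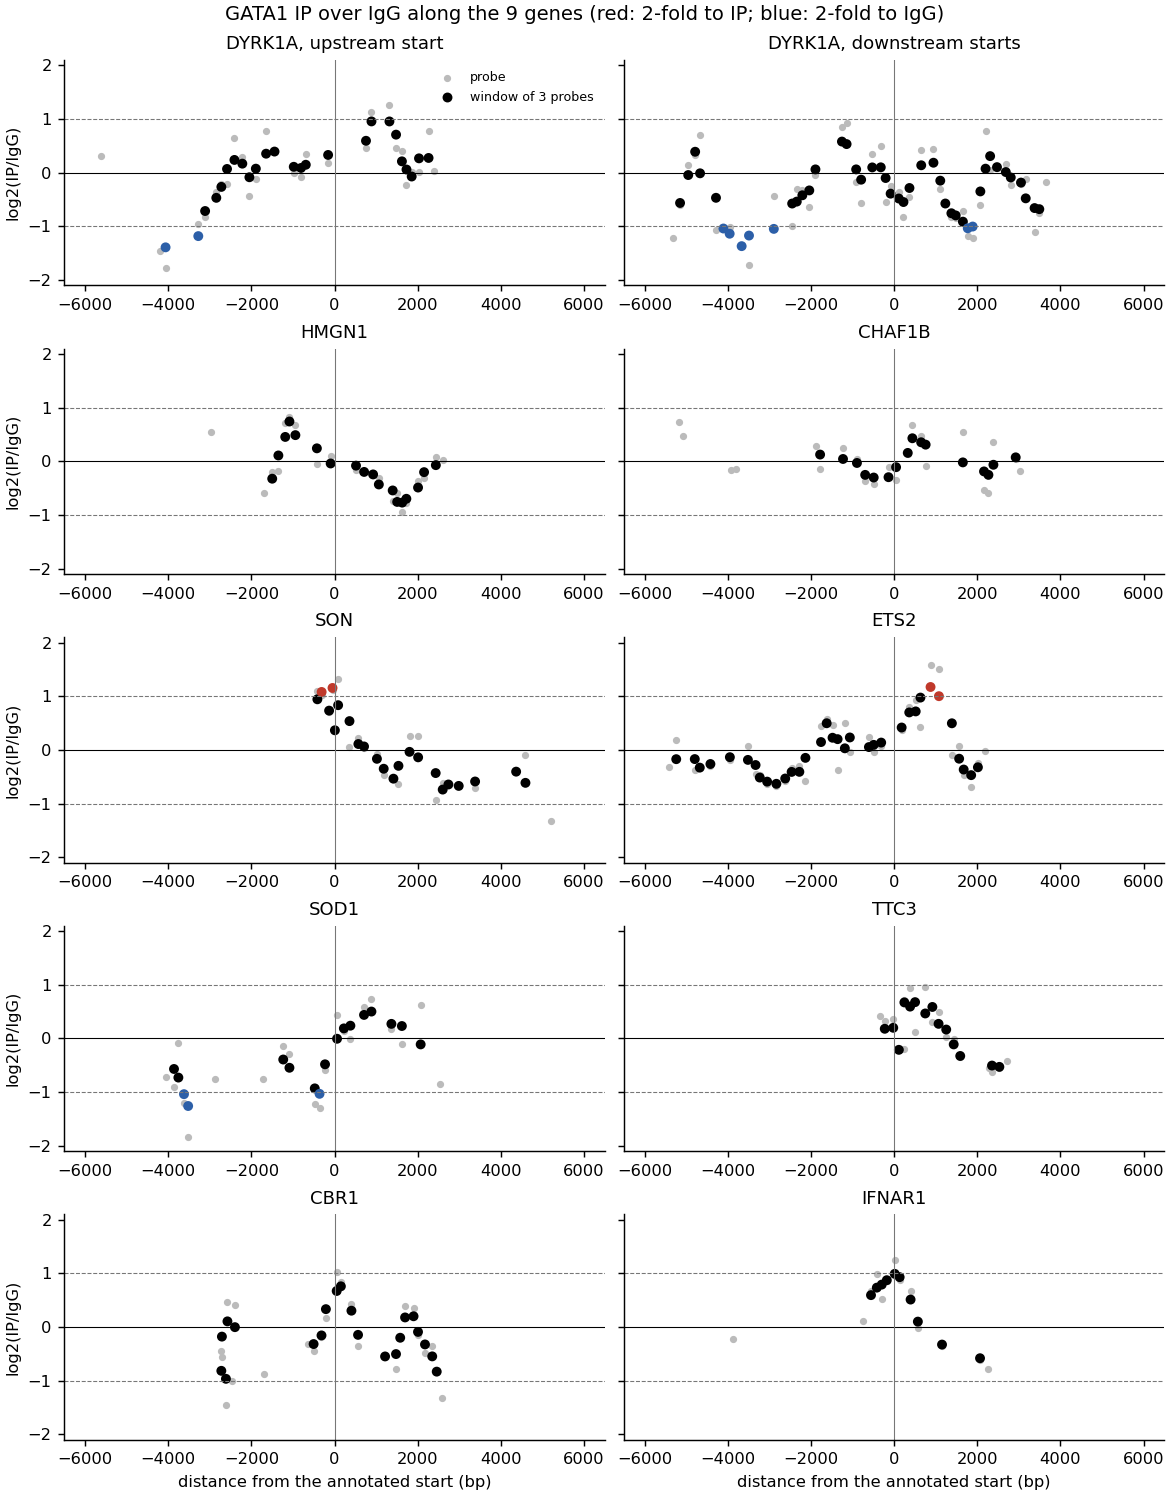
log2(IP/IgG) of probes (gray) and of windows of 3 probes (black, red at 2-fold toward the IP, blue at 2-fold toward the IgG) along the 9 genes, by distance from the nearest annotated start, or for the second panel from the first downstream start of DYRK1A. The dashed lines mark 2-fold. Red windows occur at SON and ETS2 and blue ones at DYRK1A and SOD1, and in SON and IFNAR1 the windows fall from the start into the gene.

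Among the transcription and splicing factors, SON and ETS2 had the highest windows. SON, with 22 probes and 22 windows, reached 1.15 ± 0.15 at 33836884 to 33837332, centered 49 bp before its start at 33837219. The 4 probes of the enriched region, from 33836783 to 33837332, were 1.09, 1.03, 1.12 and 1.32, so all 4 were past 2-fold. Their mean signals ran from 1079 to 2990 in the IP and from 522 to 1110 in the IgG channel. The array marks this stretch as a divergent promoter, shared with GART, a gene of purine synthesis that is read the opposite way: 6 windows belonged to both genes, and the highest window of GART was the same one. The windows of SON fell from the start into the gene. Within 1000 bp of a start all 9 were above 0, with a median of 0.73, and beyond it none of 13 was, with a median of -0.43.

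ETS2, with 36 probes and 34 windows, reached 1.17 ± 0.65 inside the gene at 39100330 to 39100827, centered 877 bp after its start at 39099718. Here the 3 probes were 0.42, 1.58 and 1.52, and the other enriched window, centered 1079 bp after the start, took in a probe of -0.09. Both enriched windows therefore rested on the same 2 probes. All 8 windows within 1000 bp of the start were above 0, with a median of 0.56. Of the 26 windows beyond it 8 were above 0, and the lowest, -0.63, was centered at -2831 bp.

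IFNAR1 stood just under 2-fold with the brightest signal of the 9 genes. Its 10 windows peaked at 0.99 ± 0.22 over the start itself, at 33618886 to 33619239, from probes of 0.85, 1.24 and 0.88. The center probe had mean signals of 12360 in the IP and 3492 in the IgG channel, and the window was at percentile 99.9 of the array by intensity. All 8 windows within 1000 bp of the start were above 0, and both windows beyond it were below 0. The value depended on the correction: with normexp the highest window of IFNAR1 was 1.14, while with loess, which takes out the trend of the log ratio on intensity, it was 0.75. IFNAR1 was thereby the one gene of the 9 that crossed to enriched under that correction, in which SON (1.22) and ETS2 (1.17) stayed enriched. The share of all genes with an enriched window fell to 30.7% under normexp, with 3 of the 9 genes. The median of the highest windows was then 0.89 for the 9 genes and 0.80 for all genes, so the order of the medians turned.

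CBR1 (a carbonyl reductase) and TTC3 (a ubiquitin ligase) stayed under 2-fold. The highest window of CBR1 was 0.76 ± 0.30 at 36364183 to 36364582, centered 152 bp after its start, from probes of 1.02, 0.84 and 0.43. CBR1 shares 9 windows with C21orf18, whose highest window (0.79) was a different one. TTC3 reached 0.68 ± 0.48 at 37367803 to 37368214, from probes of 0.94, 0.13 and 0.96, so the middle probe stood apart. That window lay 505 bp after the start of NM_001001894 and at -9171 bp from that of NM_003316. TTC3 shared 3 windows with PIGP, a gene of GPI anchor synthesis that is read the opposite way.

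The chromatin genes HMGN1 and CHAF1B and the dismutase SOD1 stayed under 2-fold as well, and CHAF1B and SOD1 had the lowest highest windows of the 9 genes. HMGN1, which is on the minus strand, reached 0.74 ± 0.08 at 39643837 to 39644133, centered at -1085 bp from its start, and its 3 probes (0.68, 0.84 and 0.71) lay close together. Within 1000 bp of its start 2 of 6 windows were above 0. CHAF1B reached 0.43 ± 0.28 at 36679865 to 36680237, 440 bp after its start, from probes of 0.14, 0.69 and 0.47. Its windows stayed between -0.30 and 0.43, the narrowest range of the 9 genes. SOD1 reached 0.50 ± 0.29 at 31954492 to 31955202, 887 bp after its start, and had 3 depleted windows. Of these, 2 lay at 31950027 to 31950963, down to -1.26, and 1 of -1.03 was centered at -361 bp from the start. None of the 3 stayed past 2-fold with normexp.

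Of the 9 highest windows, 8 lay within 1000 bp of an annotated start, all but that of HMGN1, whereas 49.3% of the highest windows of all genes did. They were also bright, with a median intensity percentile of 91.1 against 47.0 for all genes. Both properties went along with the level across the array: the median window was 0.24 in the 500 bp before a start and -0.17 between 2000 and 4000 bp before it, and in 4 equal groups of windows by intensity it rose from -0.17 in the dimmest to 0.15 in the brightest. Calls toward either side were more frequent among dim windows. In the dimmest group 11.6% were enriched and 20.2% depleted, and in the brightest 5.43% and 1.75%. Of the windows of the 9 genes 51.8% were in the brightest group, where 4 of 115 were enriched and 4 depleted. The shares of all genes and windows set beside the counts of the 9 genes were not matched for intensity. Set against windows of the same distance step and intensity group, the highest windows stood at percentile 98.0 for ETS2, 93.4 for DYRK1A, 92.2 for SON, 92.0 for HMGN1, 90.7 for IFNAR1 and 88.7 for TTC3. CBR1 was at 81.8, SOD1 at 80.7 and CHAF1B at 59.5. These percentiles compare the best window of a gene with single windows, not with the best windows of other genes.

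**Figure D3:**
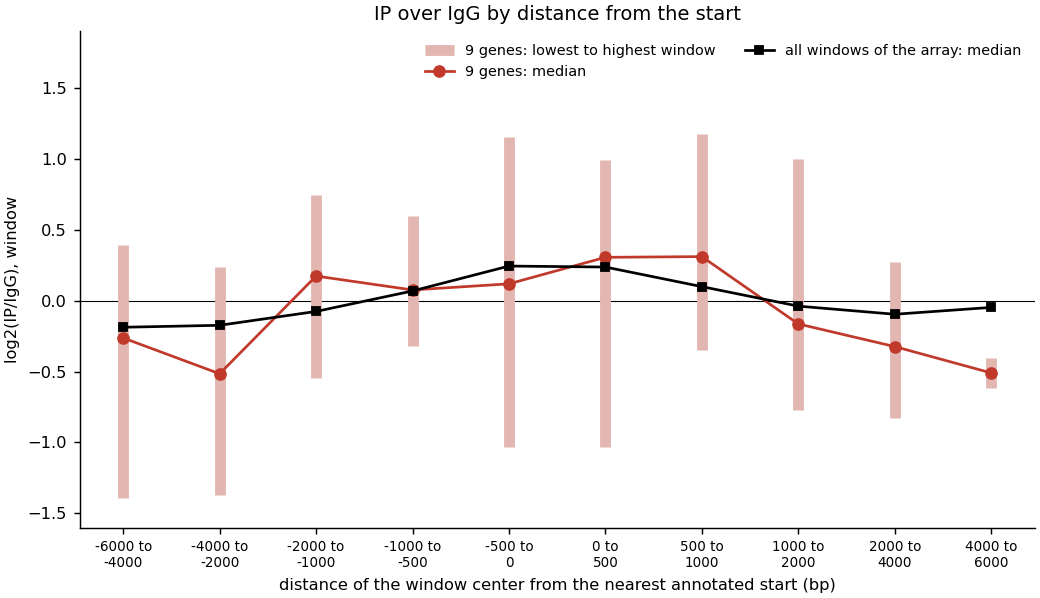
Median window of the 9 genes (red) and of all windows of the array (black) by distance from the nearest annotated start, as log2(IP/IgG), with bars from the lowest to the highest window of the 9 genes. The median of the 9 genes was highest at 0.31, from 0 to 1000 bp after the start, and that of the array at 0.24, within 500 bp on either side. The 9 genes were lower than the array between 2000 and 4000 bp on either side and in the 500 bp before the start. They were higher between 2000 and 1000 bp before the start. Only 5 of the 9 genes had windows in that step, and 4 between 4000 and 2000 bp before the start.

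By distance step the 9 genes were above the array in some steps and below it in others. Their median window was 0.17 against -0.08 between 2000 and 1000 bp before a start and 0.31 against 0.10 between 500 and 1000 bp after it. In the 500 bp before a start, where the array was highest, the 9 genes were lower, at 0.12 against 0.24. Their median was also lower between 1000 and 2000 bp after a start, at -0.16 against -0.04. It was -0.52 against -0.17 between 4000 and 2000 bp before a start and -0.32 against -0.10 between 2000 and 4000 bp after it. Only 5 of the 9 genes had windows between 2000 and 1000 bp before a start, and 4 between 4000 and 2000 bp before it. Windows were pooled, so a gene with more windows weighed more. Within 1000 bp of a start 59 of the 90 windows of the 9 genes (65.6%) were above 0, close to the 63.5% of all windows there. Beyond it 39 of 132 (29.5%) were above 0, against 44.5%. The genes were not alike in this: near the start every window of SON, ETS2 and IFNAR1 was above 0, as were 7 of 8 of TTC3, while 13 of 27 of DYRK1A, 4 of 9 of CHAF1B, 4 of 8 of SOD1 and 2 of 6 of HMGN1 were.

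**Figure D4:**
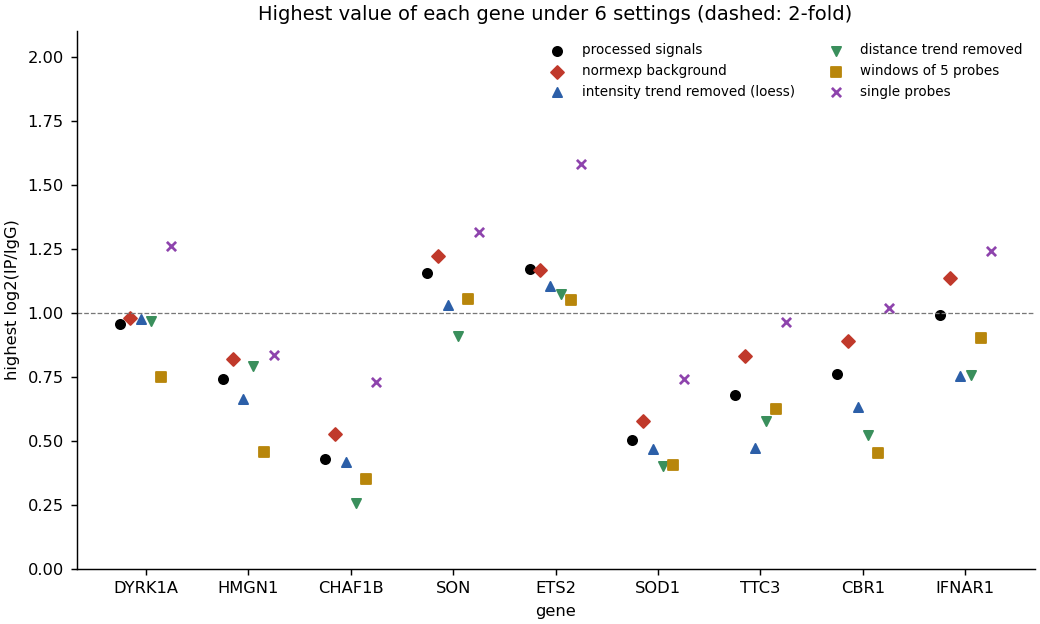
Highest log2(IP/IgG) of each gene with processed signals and under 5 other settings, with 2-fold as a dashed line. ETS2 lies above the line in all 6, SON in all but the removal of the distance trend and IFNAR1 with normexp and single probes, while HMGN1, CHAF1B, SOD1 and TTC3 lie below it in all 6.

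Read by single probes, 5 of the 9 genes (DYRK1A, SON, ETS2, CBR1 and IFNAR1) had a probe at least 2-fold toward the IP, against 84.5% of all genes.

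Of the genes of the DYRK1A pathway, 28 were listed and 27 were on the arrays. On chIP2, 13 of 19 had an enriched window and 11 a depleted one, against 54.9% and 50.5% of all genes there. On chIP1, 5 of 8 had each, against 59.4% and 55.5%. With normexp the enriched counts fell to 8 of 19 and 3 of 8, against 30.7% and 35.6% of genes. The median highest window of the list fell from 1.11 to 0.96. The paralogs of DYRK1A were mostly low: DYRK4 reached 0.31 and DYRK2 0.47, and 1 of the 4 had an enriched window. For calcineurin and the NFAT factors, on which DYRK1A acts, 7 of 10 had one (5 with normexp). The highest was NFATC2 at 3.1, although with normexp it was 1.13, as NFATC4 went from 1.93 to 1.06. PPP3CB, a catalytic subunit of calcineurin, was steadier, at 1.59 and 1.37. In the DREAM complex 7 of 10 genes had an enriched window (4 with normexp), with E2F5 at 1.57 (1.60 with normexp) and RBBP4, a histone binding subunit, at 1.55 (1.35). The window of E2F5 was centered 42908 bp after its annotated start, and that of RBBP4 at -322 bp. CCND1, the cyclin whose protein DYRK1A marks for degradation, reached 1.69 (1.56).

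Other genes of chromosome 21 that are known from blood, leukemia or the Down syndrome region gave an enriched window in 16 of 34 and a depleted one in 18 of 34, close to or below the shares of all genes (54.9% and 50.5%) and beside 37.3% and 51.4% for chromosome 21. With normexp, 11 of 34 had an enriched window, near the 30.7% of all genes. Their median highest window was 0.98, above the 0.76 of the 9 genes, but with normexp it was 0.84, below their 0.89. ERG and RUNX1, transcription factors of megakaryocytes, reached 1.69 (1.54 with normexp) and 1.19 (1.15). GABPA, an ETS family factor, reached 1.68 (1.78), DSCR3 1.58 (1.60), MORC3 1.24 (1.34) and PRMT2, named HRMT1L1 on the array, 1.17 (1.24). All 8 windows of MORC3 were above 0, the lowest at 0.66. At the other end, DSCR4 had no window above -0.39 and HLCS reached 0.03.

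Genes of the same complexes or families as the 9 genes gave an enriched window in 4 of 8 on chIP2 and 5 of 9 on chIP1, near the 54.9% and 59.4% of all genes there. With normexp the counts were 3 of 8 and 5 of 9, against 30.7% and 35.6% of all genes. The median highest window before normexp was 1.03. CHAF1A, the partner of CHAF1B in CAF-1, reached 2.33 (1.89 with normexp), and CHAF1B on the same array 0.43. All 4 relatives of HMGN1 had an enriched window, with NSBP1 (HMGN5) at 2.13 (1.07), HMGN4 at 1.42 (1.37) and HMGN3 at 1.28 (1.37). SOD3, the extracellular superoxide dismutase, reached 1.95 (1.10), while CCS, the copper chaperone of SOD1, reached 0.55. None of the 3 listed genes of the interferon receptor had an enriched window, and JAK1, a kinase of the receptor, reached 0.35. HMGN3, HMGN4, SOD3, RBBP4, E2F5 and JAK1 were on chIP1, a separate hybridization, so their levels can be set only against genes of that array.

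**Figure D5:**
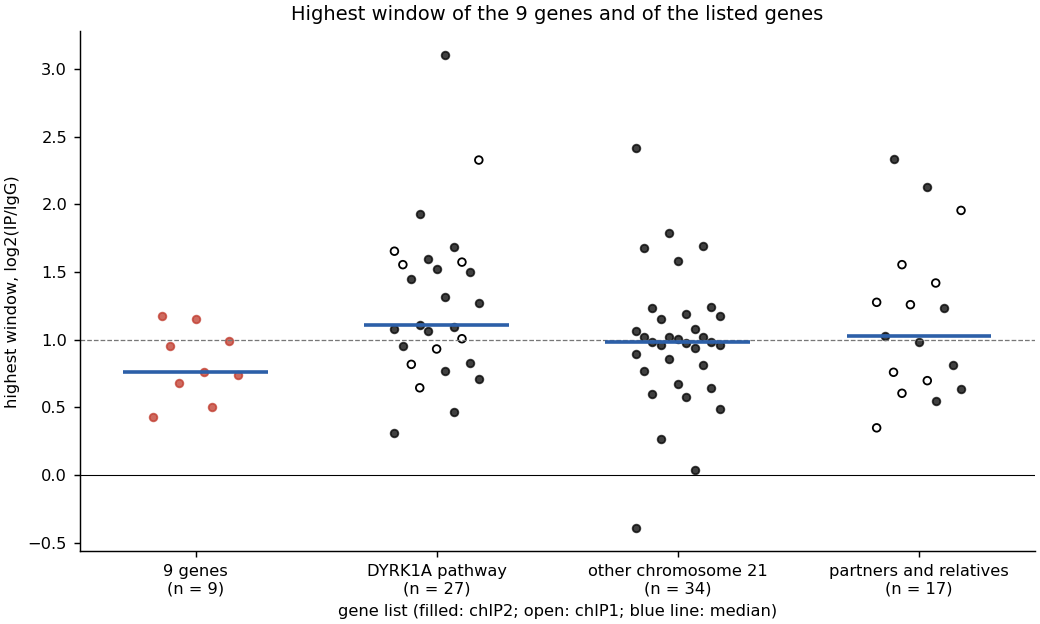
Highest window of each gene as log2(IP/IgG), with 1 point per gene, for the 9 genes (red) and the listed genes (black), with the median as a blue line and 2-fold as a dashed line. The median was 0.76 for the 9 genes, 1.11 for the DYRK1A pathway, 0.98 for other genes of chromosome 21 and 1.03 for partners and relatives, and all 4 groups overlapped. Open points are genes of chIP1, a separate hybridization, so medians that hold them are descriptions and not a comparison with the 9 genes.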

How the data were processed

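The ChIP-on-chip compared GATA1 (C-20) with normal goat IgG in Meg-01 on 2 promoter arrays with different probes, 1 hybridization each. The authors deposited scanner output made with Agilent Feature Extraction 9.5.3.1 (per the file headers). The deposited mean and background intensities are uncorrected, and the processed intensities were background-subtracted by the scanner software and dye-normalized. Each spot has a deposited log10 ratio of IP over IgG, the same as in the value table of the series (100% of spots), and a p-value of the scanner's error model, which the authors deposited with it. In the study, lowess and median normalization and peak detection with the Whitehead error model followed, and none of these programs was used here.

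Values here were log2 of processed IP over IgG intensity at array median 0, without control spots, non-uniformity outliers and probes dim in both channels (236864 of 237201 probes kept). Genes came from the annotation column of the array. Windows with their calls were tested on simulated data with independent probe noise, smaller than the spread of probes on this array. That checked the code and cannot tell how reliable the calls are here. Alternatives were loess, normexp (limma 3.58.1, offset 50), the series value table, no dim filter or one on both channels, single probes, 5-probe windows, windows wholly inside a gene's probes, 1.5-fold and 3-fold, and an error model call (p under 0.001 at the center and 0.1 at a neighbor). Removal of the distance trend was added once the data had been seen. Members and lists were chosen with earlier results of these data known. From each list the text names up to 6 genes with the highest windows past 2-fold that stayed so with normexp, and the 2 lowest. DYRK1B, which did not stay past 2-fold with normexp, is named in addition. Python 3.11.15 and R 4.3.3 were used.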

Additional observations from a re-analysis of the deposited data

How the results depend on the processing

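No paired analysis was possible because the arrays held different probes and no test was run. Of 81 highest windows of single genes under other settings, 76 stayed on the same side of 2-fold. The others were DYRK1A (1.26), IFNAR1 (1.24) and CBR1 (1.02) with single probes, IFNAR1 (1.14) with normexp and SON (0.91) with the distance trend removed. Counts moved with the threshold by construction. Genes with an enriched window (2) became 7 at 1.5-fold, 0 at 3-fold, 5 with single probes, 8 with the error model, 3 with normexp and 1 with the distance trend removed. Genes with a depleted window (2) became 6, 0, 4 and 5 in the first 4 of these, 1 with normexp and 1 with windows of 5 probes. Enriched windows (4) became 27 at 1.5-fold, 0 at 3-fold, 10 with single probes, 24 with the error model, 8 with normexp, and 2 with each of loess, windows of 5 probes and the distance trend removed. Depleted windows (12) became 33, 0, 19 and 28 in the first 4 of these, 2 with normexp and 4 with windows of 5 probes. The share of all genes with an enriched window moved too, to 83.4% at 1.5-fold, 19.4% at 3-fold, 84.5% with single probes, 83.9% with the error model and 32% with windows of 5 probes. For a depleted window the share was 76.4%, 21.1%, 79.2%, 77.4% and 31.7% in the same order. With normexp it was 22.5%, against 50.5% before. With single probes the median of the other chromosome 21 genes was 1.54, against 0.98. The cause of the changes with normexp and with the distance trend was not tested. Precision is limited by 1 array per probe and by a median signal not far above that of negative controls.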
